A study of Mus musculus with 186 samples.

Results

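The maturation of wild-type mouse prefrontal cortex was described from bulk RNA sequencing of 10 libraries, 5 from mice of 12 weeks and 5 from mice of 4 weeks. They were chosen by their labels alone, as every wild-type (WT) prefrontal library of the series, which holds 186 libraries in all. The series was made to study Akap11, which encodes an anchoring protein of protein kinase A, and covers 6 brain regions in WT mice, in mice with 1 mutant allele (Akap11 +/-, HET) and in mice with 2 (Akap11 -/-, KO). Frozen brains were dissected in a cryostat, and stranded mRNA libraries were made from 200 ng of total RNA each. Beside the WT mice, prefrontal libraries of HET mice (6 at 4 weeks, 5 at 12 weeks) and KO mice (5 at each age) gave the same age comparison in other libraries, and WT somatosensory cortex (5 at each age) and WT hippocampus (6 at 4 weeks, 5 at 12 weeks) gave it in other tissue. The labels give no strain, sex, litter or collection date. Ddx3y, a Y-linked gene, was at 27.1 to 52.8 CPM (counts as a share of the library total, here without scaling) in the 10 WT libraries and Xist at no more than 0.0352. Each number given to a library is that of its label. No label says that the libraries came from separate animals, so p-values measure the spread between these libraries. Each library was taken at 1 age, so the age of the mice and anything that differed between the 4-week and the 12-week collections cannot be told apart.

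The prefrontal cortex is among the last parts of the cortex to reach its adult form. Between weaning and adulthood its neurons stop extending axons, prune and stabilise synapses and exchange receptor subunits, its oligodendrocyte precursors become myelinating cells, and proteoglycans condense around inhibitory neurons. Genes of these processes were grouped into lists by their known roles, but members were chosen with earlier results of these data known. Each list is described by how many of its members were called and by its median change. Its share of calls is therefore a description and not an independent test.

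Of 15970 genes tested in WT, 2204 were called at an adjusted p under 0.05 by the quasi-likelihood test of edgeR, which is 13.8% of the tested genes. At 12 weeks, 960 genes (6.01%) were higher and 1244 (7.79%) were lower. Counts of called list members in WT given below are to be read beside these shares. Most changes were small. Among called genes the middle size of change, ignoring sign, was 0.40, and 128 called genes changed by more than 1 on the log2 scale, 93 of them upward. The 4-week and the 12-week libraries did not overlap in 2011 genes (12.6%), with 5.25% of the tested genes higher and 7.35% lower at 12 weeks. All fold changes below are log2, 12 against 4 weeks, so that a negative value is lower at 12 weeks, and levels are CPM of the TMM-scaled library total unless given as unscaled. Values are given for the 4-week libraries in the order 142, 23, 92, 913 and 914, and for the 12-week libraries in the order 1 to 5.

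Several measures of the libraries moved with age, and their part in the results was not tested. The total per WT library ran from 32.4 to 69.8 M counts, with overlapping ages. Genes that collect ribosomal RNA reads held 0.132% to 0.229% of the counts at 4 weeks and 0.338% to 1.12% at 12 weeks, and Lars2, the mitochondrial leucyl-tRNA synthetase and one of them, rose by 1.32 ± 0.17 (SE, adjusted p = 9.41e-04). Haemoglobin genes fell: Hbb-bs changed by -2.17 ± 0.49 (SE, adjusted p = 0.0118) and Hba-a2 by -2.01 ± 0.49 (SE, adjusted p = 0.0165). Of 4 tested blood markers, 3 were called lower in WT. Without 4-week libraries 914 and 142, 0 were called by edgeR, with 3 at an unadjusted p under 0.05. In HET 0 were called and in KO 2 were called lower, with medians of -1.14 and -1.70. The predicted genes Gm10800, Gm10801 and Gm26870, named after their values were seen, were at 0 in all 5 WT libraries of 4 weeks. Over the whole series they were at 0 in 94, 96 and 91 of 96 libraries of 4 weeks, with no count above 2, and were above 0 in all 90 libraries of 12 weeks, in every region. Library 914 stood apart at 4 weeks: 5.42% of its values above 0 were whole numbers, against 22.6% to 34.1% in the other 9, and its TMM factor was 0.788, against 0.995 to 1.04. Library 142 had 1.43% of its counts in mitochondrially encoded genes, against 2.29% to 4.04% in the others. Without library 914 the test called 2897 genes, 1430 of them higher, and without 914 and 142 it called 2160, 888 of them higher. Leaving out 4-week library 23 gave the lowest count, 1328, and leaving out 12-week library 3 gave 1450. Of the 118 called genes named with values here, 109 kept their call without 914 and 83 without both 914 and 142.

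The change also followed the make-up of the transcripts. Genes were put in 5 equal groups by the GC content of the longest transcript. In the lowest group 302 were called higher and 47 lower, with a median of 0.13, and in the highest group 71 were called higher and 571 lower, with a median of -0.13. By length, the medians ran from 0.11 in the shortest of 5 groups to -0.086 in the longest. The Spearman correlation across genes, which are not independent replicates, was -0.315 with GC content and -0.266 with length. A fit with smooth offsets in GC content and length for each library, added after the data were seen, called 1013 genes, 488 of them higher, which is 3.16% of the tested genes higher and 3.40% lower. Below, the fit without offsets is the result, and the offset fit is given where it ends the call of a gene described. 

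**Figure D1:**
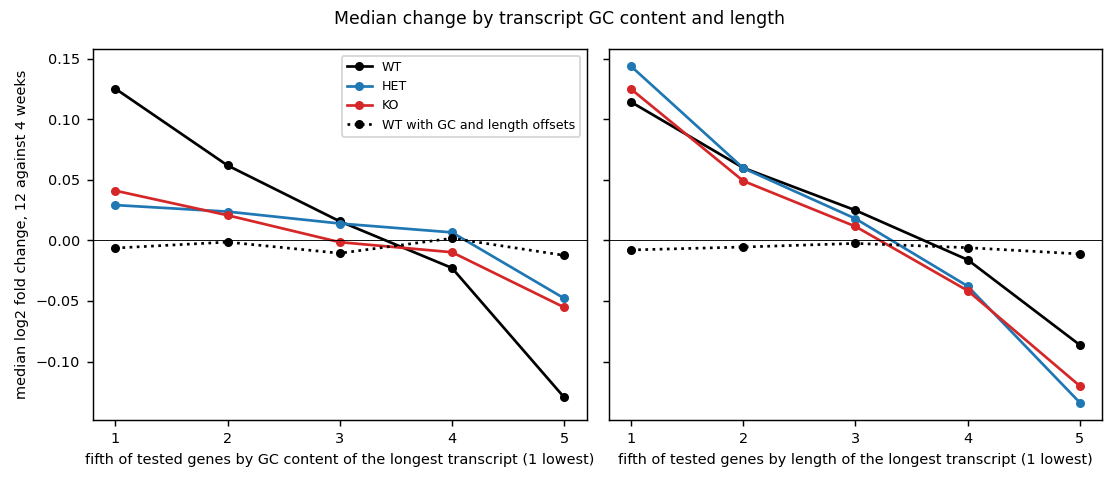
Median log2 fold change, 12 against 4 weeks, of the tested genes in 5 equal groups by transcript GC content (left) and transcript length (right). Lines stand for WT, HET and KO prefrontal cortex and for WT with offsets. The WT median falls from 0.13 to -0.13 across the GC groups, and all 3 genotypes fall across the length groups.

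The labels were checked against the targeted gene and against markers. Akap11 itself was at 285 ± 45.1 CPM at 4 weeks and 252 ± 37.6 CPM at 12 weeks in WT (SD, n = 5 each), a change of -0.18 ± 0.13 (SE, adjusted p = 0.381) that did not pass the test. It was at 142 to 175 and 115 to 142 CPM in HET at 4 and 12 weeks, and at 13.1 to 20.02 and 15.8 to 18.9 CPM in KO. All 10 pan-neuronal and all 30 astrocyte markers reached 1 CPM in every WT library. The choroid plexus markers Ttr, Clic6, Folr1 and Otx2 stayed under 0.5 CPM in every one, as did Isl1 and Six3 among 17 striatal and Gbx2 among 14 thalamic markers. The summed striatal markers were at 324 to 359 CPM at 4 weeks and 309.9 to 343 at 12 weeks.

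Genes of immature neurons and growth cones fell. Of 39 tested members, 16 were called lower and 0 higher, against 7.79% called lower among all genes, and the list's median was -0.29, against 0.015 over all tested genes. Cd24a, a surface glycoprotein of young neurons (chromosome 10, 43578284 to 43584265, plus strand), held 7.43, 10.4, 12.5, 10.1 and 10.4 CPM in the 4-week libraries and 4.08, 4.32, 4.78, 4.52 and 4.83 CPM in the 12-week libraries. The highest 12-week library lay below the lowest 4-week library, and the change was -1.17 ± 0.13 (SE, adjusted p = 2.82e-04). Dpysl2, which encodes the microtubule-binding growth cone protein CRMP2 (chromosome 14, 66802864 to 66868688, minus strand), was at 310.1, 333, 329.7, 269.7 and 411 CPM in the 4-week libraries and 134, 191, 156, 146 and 145 CPM in the 12-week libraries. No libraries of the ages overlapped, and it changed by -1.099 ± 0.12 (SE, adjusted p = 2.82e-04). Marcksl1, an actin-binding substrate of protein kinase C (chromosome 4, 129513581 to 129515985, plus strand), measured 188, 165, 144, 181 and 295 CPM in the 4-week libraries and 74.3, 76.2, 103, 96.3 and 82.6 CPM in the 12-week libraries. It too separated the ages, with a change of -1.17 ± 0.17 (SE, adjusted p = 0.00129). Islr2, a neuronal leucine-rich repeat protein of axon extension, fell from 138 ± 22.1 to 79.1 ± 7.72 CPM (SD, n = 5 each), a change of -0.80 ± 0.11 (SE, adjusted p = 0.00123). The other 12 called members fell less and included Dpysl3 (-0.53), a relative of Dpysl2. The classical marker Dcx changed by -0.28 ± 0.15 (SE, adjusted p = 0.219), the growth cone protein Gap43 by -0.037 ± 0.12 (SE, adjusted p = 0.870) and the transcription factor Sox11 by -0.43 ± 0.15 (SE, adjusted p = 0.0787), and these 3 did not pass. With GC and length offsets 9 members were called lower, and without libraries 914 and 142, 15. Leaving out 1 library at a time gave 12 (without 12-week 1) to 18 (without 4-week 913).

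Axon guidance genes fell with them. Of 47 tested, 13 were called lower and 0 higher, against 7.79% called lower among all genes, with a median of -0.23. With offsets 4 were called lower, and leaving out 1 library at a time gave 9 (without 4-week 142) to 16 (without 4-week 914). Sema6a, a transmembrane semaphorin that repels growing axons (chromosome 18, 47235598 to 47368870, minus strand), had 40.5, 36.5, 36.99, 39.01 and 34.1 CPM in the 4-week libraries and 21.8, 21.4, 21.4, 18.3 and 20.2 CPM in the 12-week libraries. The ages were apart, and the change was -0.86 ± 0.071 (SE, adjusted p = 4.87e-05). Ephb3, a receptor for membrane-bound ephrins, fell from 46.3 ± 5.33 to 30.5 ± 4.78 CPM (SD, n = 5 each), a change of -0.60 ± 0.11 (SE, adjusted p = 0.00436). Robo3, a Slit receptor family member, changed by -0.85 ± 0.24 (SE, adjusted p = 0.0316), but its call was lost on leaving out any library other than 4-week 913, 4-week 914 and 12-week 2 (largest adjusted p = 0.0812). Sema5a changed by -0.76 ± 0.22 (SE, adjusted p = 0.0342), with the call lost on leaving out any library other than 4-week 142, 4-week 913, 4-week 914 and 12-week 5 (largest adjusted p = 0.0849). With offsets neither was called, at adjusted p = 0.113 and 0.0694. The called members also held the repellent ligand Slit2 (-0.48).

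Among the 12 largest falls outside these lists was Met, the hepatocyte growth factor receptor, which is known for its role in the timing of synapse formation in forebrain projection neurons (chromosome 6, 17463800 to 17573980, plus strand). It held 7.47, 9.93, 14.1, 10.02 and 9.08 CPM in the 4-week libraries and 3.87, 3.06, 5.24, 7.19 and 5.15 CPM in the 12-week libraries, with no overlap, and changed by -1.05 ± 0.21 (SE, adjusted p = 0.00748). Cyp26b1, which breaks down retinoic acid (chromosome 6, 84571414 to 84593908, minus strand), fell the most of these 4 genes. Its values were 23.3, 25.3, 21.8, 11.8 and 18.3 CPM in the 4-week libraries and 7.87, 7.41, 5.58, 5.76 and 7.17 CPM in the 12-week libraries, a change of -1.57 ± 0.18 (SE, adjusted p = 3.17e-04). Irf2bp2, a transcriptional corepressor, fell from 72.05 ± 10.1 to 36.3 ± 5.54 CPM (SD, n = 5 each), a change of -0.99 ± 0.11 (SE, adjusted p = 3.62e-04), and Trim72, a membrane repair protein, from 3.87 ± 0.825 to 1.73 ± 0.351 CPM (SD, n = 5 each), a change of -1.16 ± 0.19 (SE, adjusted p = 0.00244).

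DNA methylation enzymes were lower at 12 weeks. Dnmt3a, the methyltransferase that deposits new DNA methylation in postnatal neurons (chromosome 12, 3806007 to 3914443, plus strand), held 117, 122, 125, 106 and 109.9 CPM in the 4-week libraries and 66.3, 76.2, 70.1, 67.7 and 72.00 CPM in the 12-week libraries. All 12-week libraries lay below all 4-week libraries, and the change was -0.72 ± 0.069 (SE, adjusted p = 1.27e-04). Tet3, a dioxygenase that oxidises methylated cytosine (chromosome 6, 83362373 to 83459084, minus strand), was at 87.02, 100.4, 94.2, 81.6 and 99.9 CPM in the 4-week libraries and 43.5, 57.2, 57.7, 47.98 and 53.1 CPM in the 12-week libraries, without overlap, and changed by -0.83 ± 0.09 (SE, adjusted p = 2.49e-04). Its relative Tet1 fell from 13.9 ± 1.75 to 8.37 ± 1.55 CPM (SD, n = 5 each), a change of -0.73 ± 0.13 (SE, adjusted p = 0.00421). The maintenance methyltransferase Dnmt1 changed by -0.23 ± 0.059 (SE, adjusted p = 0.0206). It was not called with offsets (adjusted p = 0.437) or on leaving out 12-week 4 (largest adjusted p = 0.0553). Hmgb2, a chromatin protein of dividing cells, went the other way, by 0.86 ± 0.20 (SE, adjusted p = 0.0126), and was not called with offsets (adjusted p = 0.105). In the list of DNA methylation and chromatin factors, 7 of 26 tested members were called lower and 2 higher, with a median of -0.080.

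Genes of both differentiating oligodendrocytes and the finished myelin sheath fell. Of 23 genes of precursors and differentiating cells, 7 were called lower and 0 higher, and 4 with offsets. Leaving out 4-week library 142 also left 4. Gpr17, a receptor of cells committed to differentiate (chromosome 18, 31942997 to 31949636, minus strand), had 92.4, 84.02, 76.02, 85.04 and 81.2 CPM in the 4-week libraries and 51.8, 44.4, 50.1, 41.8 and 43.5 CPM in the 12-week libraries. The ages were widely apart, and the change was -0.85 ± 0.077 (SE, adjusted p = 9.24e-05). Enpp6, a choline phosphodiesterase of newly formed oligodendrocytes (chromosome 8, 46986887 to 47096762, plus strand), held 2.74, 3.47, 4.87, 2.73 and 2.57 CPM in the 4-week libraries and 2.47, 1.19, 1.77, 1.43 and 1.64 CPM in the 12-week libraries, just without overlap, and changed by -0.95 ± 0.23 (SE, adjusted p = 0.0162). The transcription factors Sox8 and Sox10 changed by -0.73 ± 0.15 (SE, adjusted p = 0.00693) and -0.55 ± 0.11 (SE, adjusted p = 0.00735). Sox10 was not called with offsets (adjusted p = 0.0690). The precursor marker Pdgfra changed by -0.15 ± 0.093 (SE, adjusted p = 0.304) and did not pass.

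Of 25 tested genes of the myelin sheath, 9 were called lower and 3 higher, with a median of -0.43. Mag, a myelin glycoprotein facing the axon (chromosome 7, 30899176 to 30914873, minus strand), held 75.5, 84.2, 97.7, 43.8 and 45.8 CPM in the 4-week libraries and 34.6, 31.3, 23.9, 30.1 and 35.7 CPM in the 12-week libraries. The ages did not overlap, although the 4-week libraries ranged widely, and the change was -1.15 ± 0.20 (SE, adjusted p = 0.00360). Cldn11, the tight junction protein of myelin, fell from 47.2 ± 14.7 to 23.99 ± 3.59 CPM (SD, n = 5 each), a change of -0.97 ± 0.18 (SE, adjusted p = 0.00441). Mog, a surface protein of mature myelin, changed by -0.99 ± 0.25 (SE, adjusted p = 0.0207). It was not called on leaving out 12-week 3 (largest adjusted p = 0.0542). The higher members were Apod (0.77), Plekhb1 (0.42) and Car2 (0.26), of which 0 were called with offsets (adjusted p = 0.0669, 0.0535 and 0.364) and 0 without 4-week library 23. Leaving out 12-week library 3 left 5 genes called lower. The summed myelin markers were at 1336 to 2946 CPM at 4 weeks, highest in library 92 and lowest in 913, and at 1148 to 1499.9 CPM at 12 weeks. In bulk samples fewer cells of a type and less RNA per cell cannot be told apart.

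In HET and KO, 0 myelin genes were called lower by edgeR, and 2 and 3 were called higher. Over all tested genes, 6.05% were called lower and 5.65% higher in HET, and 5.21% and 4.10% in KO. Mag changed by -0.78 in HET (adjusted p = 0.215) and -0.45 in KO (adjusted p = 0.515). The spread was wide: Mag ran from 20.6 to 87.6 CPM in the 6 HET libraries of 4 weeks and from 18.1 to 74.6 in the 5 of KO. The difference in age effect between WT and the mean of HET and KO, a test added after the data were seen, called 0 of 16541 genes, with 935 at an unadjusted p under 0.05 by edgeR and 2 called by DESeq2, so a difference in the myelin genes between genotypes was not shown. Gpr17, in contrast, fell in each genotype, with changes of -0.98 in HET (adjusted p = 5.37e-05) and -0.98 in KO (adjusted p = 3.57e-05), and Enpp6 changed by -1.35 in HET (adjusted p = 0.00163) and -1.02 in KO (adjusted p = 0.00843). Of the precursor and differentiation genes, 6 of 23 were called lower in HET and 6 in KO. In the tests over both WT regions, 10 of 26 myelin genes were called lower in somatosensory cortex and 13 in hippocampus, where 10.9% and 8.67% of all tested genes were called lower.

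**Figure D2:**
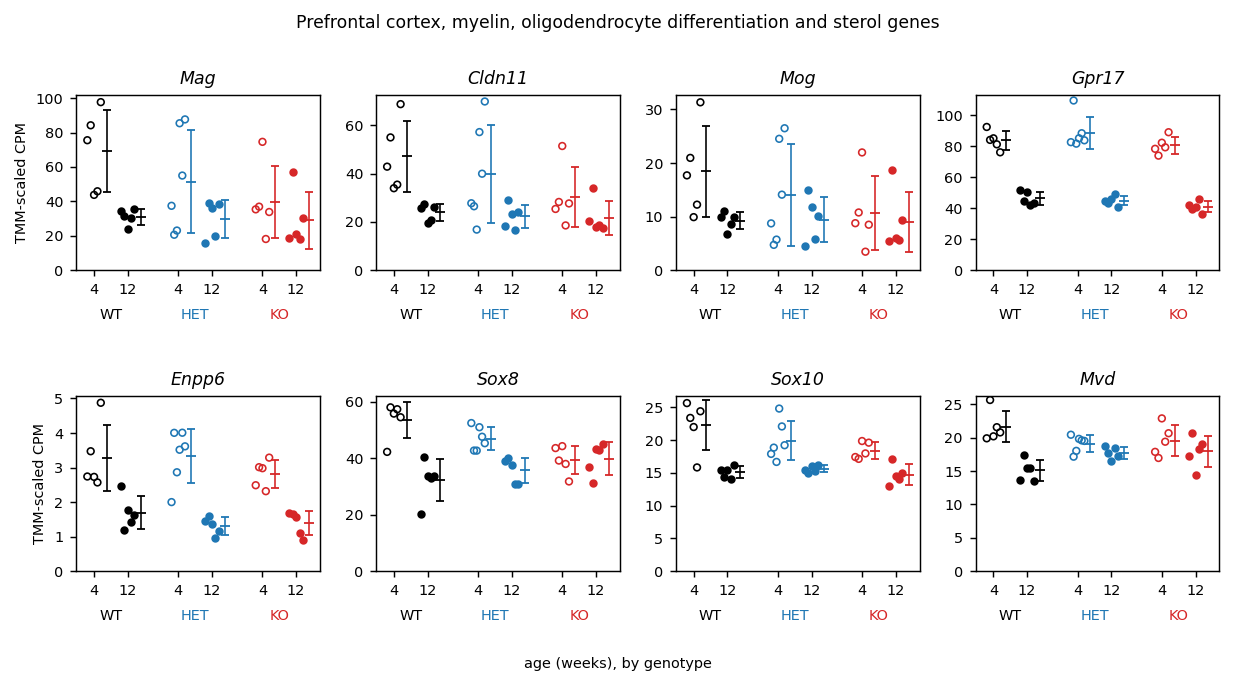
TMM-scaled CPM of 8 genes of the oligodendrocyte lineage and of sterol synthesis in prefrontal cortex, by age in weeks and genotype; points are libraries (open at 4 weeks, filled at 12 weeks), and bars beside them are the mean and SD. The ages separate for Gpr17 in all 3 genotypes, while the 4-week libraries of Mag, Cldn11 and Mog spread widely, and in HET and KO overlap those of 12 weeks.

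Sterol synthesis supplies the cholesterol of growing membranes and of myelin. Of 25 tested genes, 10 were called lower and 0 higher, with a median of -0.090. Mvd, an enzyme of the mevalonate steps (chromosome 8, 122433601 to 122443422, minus strand), held 19.9, 25.6, 20.8, 20.2 and 21.6 CPM in the 4-week libraries and 13.6, 17.4, 15.4, 15.5 and 13.5 CPM in the 12-week libraries. All 12-week libraries lay below all 4-week libraries, and the change was -0.51 ± 0.094 (SE, adjusted p = 0.00455). Dhcr7, the enzyme of the last step, changed by -0.47 ± 0.058 (SE, adjusted p = 5.92e-04). Sqle changed by -0.25 ± 0.077 (SE, adjusted p = 0.0429) and lost its call on leaving out any library other than 4-week 913 (largest adjusted p = 0.0976) and with offsets (adjusted p = 0.0704). In HET, 1 member was called lower and 1 higher, against 6.05% and 5.65% of all tested genes. In KO 1 was called lower, against 5.21%. Dhcr7 was called in both, at -0.29 in HET (adjusted p = 0.00414) and -0.29 in KO (adjusted p = 0.0328). With offsets 5 members were called lower in WT. Leaving out 4-week library 23 left 4.

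The extracellular matrix changed in part. Ncan, which encodes neurocan, a chondroitin sulphate proteoglycan of the juvenile brain (chromosome 8, 70093085 to 70120873, minus strand), had 508, 472, 452, 448 and 547 CPM in the 4-week libraries and 286, 266, 283, 277 and 275 CPM in the 12-week libraries. The ages were apart, and the change was -0.81 ± 0.087 (SE, adjusted p = 2.49e-04). Adamts4, a protease that cuts such proteoglycans, changed by -1.05 ± 0.22 (SE, adjusted p = 0.00813), and Has3, a hyaluronan synthase, by -0.94 ± 0.25 (SE, adjusted p = 0.0247). Has3 lost its call on leaving out 4-week 23, 12-week 1, 12-week 3, 12-week 4 or 12-week 5 (largest adjusted p = 0.0601) and with offsets (adjusted p = 0.0563). Timp3, a metalloproteinase inhibitor bound to matrix, rose by 0.55 ± 0.11 (SE, adjusted p = 0.00783). It did not pass in HET, at -0.068 (adjusted p = 0.895), or KO, at 0.0022 (adjusted p = 0.995). The main aggrecan of perineuronal nets, Acan, changed by -0.33 ± 0.17 (SE, adjusted p = 0.209) and did not pass. Of 23 members of the perineuronal net and matrix list, 4 were called lower and 1 higher, against 7.79% and 6.01% among all genes. The list's median was -0.20, and with offsets 2 were called lower.

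Of 33 collagen and fibrillar matrix genes, 5 were called lower and 0 higher, against 7.79% called lower among all genes, with a median of -0.17. Col4a1, a collagen of the vascular basement membrane (chromosome 8, 11198423 to 11312826, minus strand), held 69.6, 71.9, 69.1, 75.04 and 56.2 CPM in the 4-week libraries and 52.9, 52.7, 41.4, 38.05 and 44.4 CPM in the 12-week libraries, with no overlap, and changed by -0.57 ± 0.10 (SE, adjusted p = 0.00421). It was not called with offsets (adjusted p = 0.0595), and neither were Col1a1, Col24a1 and Col9a3, at adjusted p = 0.141, 0.0924 and 0.0874. Of the whole list 0 were called with offsets by edgeR, with 7 at an unadjusted p under 0.05. Col1a1, a fibrillar collagen of meninges and bone, changed by -1.02 ± 0.32 (SE, adjusted p = 0.0468), and its call was lost on leaving out any library other than 4-week 914 and 12-week 1 (largest adjusted p = 0.0993). Col24a1 and Col9a3 changed by -0.77 ± 0.22 (SE, adjusted p = 0.0321) and -0.50 ± 0.13 (SE, adjusted p = 0.0245). The call of Col24a1 was lost on leaving out any library other than 4-week 913, 4-week 914 and 12-week 2 (largest adjusted p = 0.0838), and that of Col9a3 on leaving out 4-week 142, 4-week 23, 12-week 3 or 12-week 5 (largest adjusted p = 0.0638). Col3a1, another fibrillar collagen, changed by -1.17 ± 0.38 (SE, adjusted p = 0.0532) and did not pass, while it was called in HET and KO, at -2.19 in HET (adjusted p = 0.00356) and -1.66 in KO (adjusted p = 0.0135). Library 914 moved this list most: without it, 13 of its genes were called lower, without 142, 2, and without both, 11. Without 913, 4 were called higher. The summed markers of choroid plexus and meninges were at 394 to 1335 CPM at 4 weeks and 644 to 1308 at 12 weeks, and their part in the result was not tested.

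Most called receptor genes, and all 11 called genes of vesicles and scaffolds, fell. Of 6 tested NMDA receptor subunits, the obligatory subunit Grin1, Grin2d and Grin3a were called lower. Grin1 (chromosome 2, 25291181 to 25319187, minus strand) had 773, 769.6, 700.1, 673 and 1003 CPM in the 4-week libraries and 563, 569, 550.2, 545 and 500.0 CPM in the 12-week libraries, without overlap, and changed by -0.52 ± 0.12 (SE, adjusted p = 0.0122). Grin2d, a subunit of interneurons and early development (chromosome 7, 45831883 to 45878378, minus strand), had 17.2, 14.8, 14.5, 14.8 and 12.7 CPM in the 4-week libraries and 9.38, 9.69, 10.2, 10.7 and 9.41 CPM in the 12-week libraries. Its ages were apart, with a change of -0.58 ± 0.091 (SE, adjusted p = 0.00196). Grin3a, a subunit of juvenile synapses, changed by -0.35 ± 0.092 (SE, adjusted p = 0.0234), and was not called on leaving out 12-week 5 (largest adjusted p = 0.0543). The pair exchanged during synapse maturation did not pass: Grin2b changed by -0.27 ± 0.13 (SE, adjusted p = 0.174) and Grin2a by -0.032 ± 0.083 (SE, adjusted p = 0.832). With offsets 0 of 6 subunits were called by edgeR, at adjusted p = 0.166 for Grin1, 0.299 for Grin2d and 0.0947 for Grin3a.

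Of 22 AMPA and kainate receptor genes, 3 were called lower and 0 higher, against 7.79% called lower among all genes. The kainate subunit Grik5 changed by -0.57 ± 0.093 (SE, adjusted p = 0.00253), the AMPA receptor auxiliary subunit Cacng8 by -0.48 ± 0.09 (SE, adjusted p = 0.00520) and Grik3 by -0.48 ± 0.13 (SE, adjusted p = 0.0316). Grik3 lost its call on leaving out any library other than 4-week 913, 4-week 914 and 12-week 4 (largest adjusted p = 0.0840), and Grik5 and Grik3 lost theirs with offsets, at adjusted p = 0.0808 and 0.254. Among 18 genes of GABA-A receptors and chloride transport, Nlgn2, an adhesion protein of inhibitory synapses, changed by -0.57 ± 0.11 (SE, adjusted p = 0.00726) and Gabrg3 by -0.40 ± 0.11 (SE, adjusted p = 0.0324), while Gabra2 and Gabrg1 rose by 0.39 ± 0.11 (SE, adjusted p = 0.0388) and 0.50 ± 0.14 (SE, adjusted p = 0.0329). The calls of these 3 subunits were lost on leaving out single libraries: that of Gabrg3 without any library other than 4-week 142, 4-week 913, 4-week 914 and 12-week 4 (largest adjusted p = 0.0837), that of Gabra2 without any library other than 4-week 913, 4-week 914 and 12-week 4 (largest adjusted p = 0.0943) and that of Gabrg1 without any library other than 4-week 913, 4-week 914, 12-week 2 and 12-week 4 (largest adjusted p = 0.0820). With offsets, Nlgn2, Gabra2 and Gabrg1 were not called, at adjusted p = 0.209, 0.130 and 0.0843.

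Nlgn3, a postsynaptic neuroligin that binds neurexins (chromosome X, 101299168 to 101325963, plus strand), was the synaptic gene that fell most. It had 263, 249, 242, 237 and 306 CPM in the 4-week libraries and 137, 134, 134, 136 and 144 CPM in the 12-week libraries, with every 12-week library below every 4-week library and a change of -0.92 ± 0.084 (SE, adjusted p = 9.24e-05). With offsets it was -0.79 (adjusted p = 3.61e-04). Bsn, a scaffold of the presynaptic active zone, Sv2a, a vesicle protein, and Slc17a7, the vesicular glutamate transporter of cortical neurons, changed by -0.50 ± 0.11 (SE, adjusted p = 0.0126), -0.51 ± 0.12 (SE, adjusted p = 0.0136) and -0.56 ± 0.16 (SE, adjusted p = 0.0369). With offsets these 3 were not called, at adjusted p = 0.638, 0.0690 and 0.126, and Slc17a7 lost its call on leaving out any library other than 4-week 92, 4-week 913 and 4-week 914 (largest adjusted p = 0.0859). In all, 11 of 42 vesicle and scaffold genes were called lower and 0 higher, against 7.79% called lower among all genes. The list's median was -0.23. With offsets 2 were called lower and 1 higher, near the 3.40% and 3.16% over all genes in that fit. The vesicle protein Syp changed by -0.46 ± 0.17 (SE, adjusted p = 0.0904) and Snap25, which drives vesicle fusion, by 0.17 ± 0.17 (SE, adjusted p = 0.543), and neither passed.

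Of 46 sodium and potassium channel genes, 11 were called lower and 1 higher, with a median of -0.21. Over all tested genes, 7.79% were called lower and 6.01% higher. With offsets 2 of 45 tested members were called lower and 1 higher, near the 3.40% and 3.16% over all genes. Kcna6, a Shaker-type channel of axons (chromosome 6, 126708329 to 126740674, minus strand), had 221, 239, 232, 169.8 and 265 CPM in the 4-week libraries and 142, 142, 136, 162 and 146 CPM in the 12-week libraries, without overlap, and changed by -0.63 ± 0.11 (SE, adjusted p = 0.00324). The inward rectifier Kcnj4 changed by -0.46 ± 0.11 (SE, adjusted p = 0.0140), the leak channel Kcnk9 by -0.45 ± 0.12 (SE, adjusted p = 0.0264) and the sodium channel auxiliary subunit Scn2b by -0.44 ± 0.11 (SE, adjusted p = 0.0216). With offsets these 3 were not called, at adjusted p = 0.0572, 0.0825 and 0.0629. Kcnk9 also lost its call on leaving out 4-week 142, 4-week 23 or 12-week 4 (largest adjusted p = 0.0670), and Scn2b on leaving out 12-week 1, 12-week 2, 12-week 3 or 12-week 5 (largest adjusted p = 0.0539). The member that rose was Kcnd3 (0.29), a channel of the A-type current, and its call was lost on leaving out 4-week 142, 4-week 23, 4-week 92, 12-week 1 or 12-week 3 (largest adjusted p = 0.0629).

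Among 36 receptors for neuromodulators, 6 were called lower and 0 higher, against 7.79% called lower among all genes, with a median of -0.25. Htr1a, an inhibitory serotonin receptor (chromosome 13, 105443639 to 105448122, plus strand), held 28.4, 23.2, 24.6, 21.4 and 22.7 CPM in the 4-week libraries and 16.8, 12.3, 17.5, 17.9 and 18.2 CPM in the 12-week libraries. The ages did not overlap, and the change was -0.54 ± 0.11 (SE, adjusted p = 0.00755), with -0.51 in HET (adjusted p = 0.0232) and -0.46 in KO (adjusted p = 0.00423). In HET it was not called with offsets (adjusted p = 0.0558). Chrna4, a nicotinic acetylcholine receptor subunit, changed by -0.58 ± 0.10 (SE, adjusted p = 0.00410), and Chrm4, a muscarinic receptor, by -0.57 ± 0.16 (SE, adjusted p = 0.0279). Adra2a, the noradrenaline autoreceptor that is also postsynaptic in this region, changed by -0.42 ± 0.12 (SE, adjusted p = 0.0288). Chrm4 lost its call on leaving out 4-week 914 or 12-week 2 (largest adjusted p = 0.0583). Adra2a lost its call on leaving out 4-week 142, 4-week 92 or 12-week 5 (largest adjusted p = 0.0716) and with offsets (adjusted p = 0.252).

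Inhibitory neuron genes did not move as 1 group. Of 24 genes of parvalbumin interneurons, 4 were called lower and 0 higher, against 7.79% called lower among all genes. They were the fast potassium channels Kcnc1 and Kcnc2, the calcium channel subunit Cacna2d2 and the vesicular GABA transporter Slc32a1. Kcnc1 and Kcnc2 changed by -0.36 ± 0.076 (SE, adjusted p = 0.00897) and -0.34 ± 0.10 (SE, adjusted p = 0.0342). Cacna2d2 and Slc32a1 changed by -0.48 ± 0.12 (SE, adjusted p = 0.0186) and -0.32 ± 0.081 (SE, adjusted p = 0.0193). Kcnc1, Cacna2d2 and Slc32a1 were not called with offsets, at adjusted p = 0.576, 0.157 and 0.370. Kcnc2 lost its call on leaving out any library other than 4-week 142, 4-week 913, 4-week 914 and 12-week 4 (largest adjusted p = 0.0918), Cacna2d2 on leaving out 12-week 3 (largest adjusted p = 0.0503) and Slc32a1 on leaving out 4-week 23 or 12-week 3 (largest adjusted p = 0.0520). Pvalb itself was at 14.2 ± 3.87 CPM at 4 weeks and 12.4 ± 3.28 CPM at 12 weeks (SD, n = 5 each), a change of -0.19 ± 0.21 (SE, adjusted p = 0.587) that did not pass. Of 25 genes of other interneurons, the neuropeptides Vip and Tac2 rose by 0.62 ± 0.14 (SE, adjusted p = 0.0103) and 0.75 ± 0.18 (SE, adjusted p = 0.0157), and Reln, the secreted glycoprotein of layer 1 and interneurons, changed by -0.42 ± 0.11 (SE, adjusted p = 0.0195). With offsets these 3 were not called, at adjusted p = 0.134, 0.0535 and 0.186, and Reln lost its call on leaving out 12-week 1 or 12-week 5 (largest adjusted p = 0.0537). Vip did not pass in HET, at 0.048 (adjusted p = 0.915), or KO, at 0.079 (adjusted p = 0.838). Neither did Tac2, at -0.019 in HET (adjusted p = 0.968) and 0.079 in KO (adjusted p = 0.865). In the fits without offsets Reln was called lower in both, at -0.54 in HET (adjusted p = 3.76e-04) and -0.55 in KO (adjusted p = 0.0103).

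Among 28 markers of cortical layers and projection classes, 4 were called lower and 1 higher, against 7.79% and 6.01% among all genes. Ntng1, a netrin-G of axons, changed by -0.39 ± 0.09 (SE, adjusted p = 0.0138), and the transcription factors Rorb of layer 4 and Tbr1 of deep layers changed by -0.41 ± 0.12 (SE, adjusted p = 0.0340) and -0.40 ± 0.11 (SE, adjusted p = 0.0360). Rspo1, a Wnt pathway ligand, rose by 0.66 ± 0.19 (SE, adjusted p = 0.0341). The calls of Rorb, Tbr1 and Rspo1 were lost on leaving out 4-week 142, 4-week 914, 12-week 1, 12-week 3 or 12-week 4 (largest adjusted p = 0.0844), any library other than 4-week 142, 4-week 913 and 12-week 5 (largest adjusted p = 0.0898) and 4-week 23, 4-week 92, 12-week 2, 12-week 4 or 12-week 5 (largest adjusted p = 0.0811), in that order. Rorb and Tbr1 were not called with offsets (adjusted p = 0.0893 and 0.0884).

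Genes of antigen presentation rose. Major histocompatibility complex (MHC) class I molecules pair a heavy chain with beta-2-microglobulin, and in neurons they are known for a role in the removal of synapses. Of 23 tested genes of antigen presentation and the interferon response, 8 were called higher and 0 lower, against 6.01% called higher among all genes. The list's median was 0.60. With offsets 7 were called, and without libraries 914 and 142, 4. Leaving out 4-week library 913 gave 14. The 300 bases around the starts of B2m and of 2 heavy chain genes are shown because such windows hold the elements that class I genes are known to share. They run from 250 bases before to 50 after the start in RefSeq on GRCm38.p6, 5′ to 3′ on the gene's strand. Capitals mark a match to an interferon-stimulated response element, searched as GAAA, any 2 bases and GAAA, or to the X2 box of class I promoters, searched as TGACGC, each on both strands.
B2m: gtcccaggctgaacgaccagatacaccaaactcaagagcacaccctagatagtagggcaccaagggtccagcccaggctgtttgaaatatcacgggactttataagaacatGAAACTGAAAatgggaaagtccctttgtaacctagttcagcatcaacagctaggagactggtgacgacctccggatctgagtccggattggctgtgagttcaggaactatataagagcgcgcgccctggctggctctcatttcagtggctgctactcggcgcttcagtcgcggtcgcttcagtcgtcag
H2-D1: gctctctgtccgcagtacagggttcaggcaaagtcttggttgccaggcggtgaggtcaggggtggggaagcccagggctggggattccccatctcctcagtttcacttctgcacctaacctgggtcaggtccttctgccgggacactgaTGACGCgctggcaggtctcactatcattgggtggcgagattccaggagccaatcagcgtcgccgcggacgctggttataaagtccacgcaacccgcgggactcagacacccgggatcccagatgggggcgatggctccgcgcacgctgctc
H2-K1: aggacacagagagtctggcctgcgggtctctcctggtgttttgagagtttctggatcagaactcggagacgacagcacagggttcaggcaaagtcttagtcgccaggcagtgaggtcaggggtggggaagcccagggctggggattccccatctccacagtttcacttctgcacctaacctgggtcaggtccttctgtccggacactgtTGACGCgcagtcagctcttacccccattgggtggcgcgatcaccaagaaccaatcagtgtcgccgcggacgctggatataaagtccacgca
B2m lies at chr2:122147437-122147736 on the plus strand, H2-D1 at chr17:35262844-35263143 on the plus strand and H2-K1 at chr17:34000298-34000597 on the minus strand. The first motif was found in 6 of the 17 list members with a promoter in the RefSeq table, B2m, Bst2, H2-T23, Ifit1, Ifit3 and Isg15, and in 3.49% of 27025 promoters. The second was found in H2-D1, H2-K1 and H2-Q4 and in 7.50% of promoters. None of the 3 windows held both motifs as searched, and a match is a description of the letters only. The search required every fixed letter, so a looser form of either element would not be marked. A window without a mark was not shown to lack the element.

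B2m, the common light chain, had 29.8, 29.3, 33.1, 39.8 and 42.5 CPM in the 4-week libraries and 61.9, 59.05, 56.5, 50.2 and 55.99 CPM in the 12-week libraries. Its ages did not overlap, and it rose by 0.70 ± 0.10 (SE, adjusted p = 0.00158). H2-Q4, a heavy chain (chromosome 17, 35379617 to 35385290, plus strand), held 2.33, 1.26, 1.88, 2.71 and 1.39 CPM in the 4-week libraries and 4.87, 3.93, 3.68, 3.43 and 4.04 CPM in the 12-week libraries, without overlap, and rose by 1.05 ± 0.21 (SE, adjusted p = 0.00635). H2-D1 and H2-K1, the classical heavy chains, changed by 0.51 ± 0.13 (SE, adjusted p = 0.0182) and 0.75. Class I heavy chains are close copies of each other, so the split of reads between them is uncertain. Cd74, the invariant chain of class II (chromosome 18, 60803848 to 60812652, plus strand), held 3.91, 3.07, 3.88, 7.30 and 3.40 CPM in the 4-week libraries and 13.98, 11.2, 13.6, 4.91 and 10.6 CPM in the 12-week libraries. Its ages overlapped through 4-week library 913, the highest of that age, and the change was 1.32 ± 0.28 (SE, adjusted p = 0.00844). It was not called without libraries 914 and 142 (adjusted p = 0.0510). The class II chains H2-Aa and H2-Ab1 changed by 1.29 ± 0.31 (SE, adjusted p = 0.0160) and 1.22 ± 0.35 (SE, adjusted p = 0.0333). H2-Ab1 lost its call on leaving out any library other than 4-week 142, 4-week 913 and 12-week 4 (largest adjusted p = 0.0779) and with offsets (adjusted p = 0.0529). Ifit3b, an interferon-induced gene among the largest rises, changed by 1.05 ± 0.16 (SE, adjusted p = 0.00162). B2m rose in each of the other genotypes, by 0.43 in HET (adjusted p = 0.0495) and 0.44 in KO (adjusted p = 0.0174). With offsets it was not called in HET (adjusted p = 0.539) or KO (adjusted p = 0.419), and 0 of the list were called there by edgeR, with 2 and 3 at an unadjusted p under 0.05. Without offsets the whole list of 23 gave 2 called higher in HET and 1 in KO. These counts were near the 5.65% and 4.10% of all tested genes called higher there. H2-Q4 did not pass in either, at 0.32 in HET (adjusted p = 0.528) and -0.026 in KO (adjusted p = 0.971).

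Il33, an alarmin cytokine that glia release and that acts on microglia (chromosome 19, 29925114 to 29960718, plus strand), had 3.52, 5.19, 6.28, 6.38 and 5.47 CPM in the 4-week libraries and 15.1, 14.6, 11.3, 13.9 and 13.2 CPM in the 12-week libraries. The ages were apart, and it rose by 1.34 ± 0.15 (SE, adjusted p = 2.82e-04). Of 24 genes of microglia and complement, 4 were called higher and 0 lower, against 6.01% called higher among all genes, with a median of 0.29. The lysosomal protease Ctss rose by 0.63 ± 0.087 (SE, adjusted p = 0.00115) and the signalling adaptor Tyrobp by 0.59 ± 0.12 (SE, adjusted p = 0.00748). The complement subunit C1qb and the lysozyme Lyz2 changed by 0.44 ± 0.12 (SE, adjusted p = 0.0285) and 0.97 ± 0.27 (SE, adjusted p = 0.0300), and their calls were lost on leaving out any library other than 4-week 913, 4-week 914, 12-week 3 and 12-week 4 (largest adjusted p = 0.0700) and any library other than 4-week 92, 4-week 913, 12-week 3 and 12-week 4 (largest adjusted p = 0.0810). Lyz2 was not called with offsets (adjusted p = 0.0982). Without libraries 914 and 142, 2 members were called, and without 913, 7. The summed microglial markers were at 451 to 593 CPM at 4 weeks and 515 to 673 at 12 weeks, with Itgax, C3 and Lgals3 under 0.5 CPM in every library, and their part in the rise of antigen presentation was not tested.

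Xdh, xanthine dehydrogenase of purine breakdown (chromosome 17, 73883895 to 73950196, minus strand), showed the largest of these rises. It had 1.03, 1.29, 1.77, 2.12 and 1.66 CPM in the 4-week libraries and 5.59, 8.11, 5.52, 6.27 and 5.62 CPM in the 12-week libraries, without overlap, and rose by 1.98 ± 0.19 (SE, adjusted p = 1.27e-04). Alox12b, a lipoxygenase, rose by 1.40 ± 0.18 (SE, adjusted p = 9.22e-04), and Etnppl, a phospholyase of astrocytes, by 1.39 ± 0.21 (SE, adjusted p = 0.00194). The phospholipase Pla2g16 rose by 1.098 ± 0.19 (SE, adjusted p = 0.00333) and the ubiquitin ligase family member Rnf207 by 1.08 ± 0.19 (SE, adjusted p = 0.00344). The largest rises also held Zfp960 (1.18), the kinase family member Plk5 (1.13), the repair gene Rdm1 (1.09) and the complement inhibitor Cd59a (1.06).

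Of 30 astrocyte genes, 4 were called higher and 1 lower (8 and 1 without library 914), against 6.01% and 7.79% among all genes. The list's median was 0.12. The calcium-binding protein S100b (chromosome 10, 76253853 to 76261159, plus strand) had 39.05, 41.9, 46.95, 41.4 and 52.3 CPM in the 4-week libraries and 87.3, 76.6, 58.9, 72.3 and 65.9 CPM in the 12-week libraries, without overlap, and rose by 0.70 ± 0.11 (SE, adjusted p = 0.00170). Chrdl1, which astrocytes secrete and which drives the maturation of AMPA receptors at synapses, rose by 0.61 ± 0.11 (SE, adjusted p = 0.00382). The inhibitor of differentiation Id4 rose by 0.57 ± 0.13 (SE, adjusted p = 0.0126). Gpc4, a glypican that astrocytes use to induce young synapses, changed by -0.52 ± 0.08 (SE, adjusted p = 0.00196). Gfap changed by 0.16 ± 0.34 (SE, adjusted p = 0.786) and did not pass. The summed astrocyte markers were at 7427 to 10592 CPM at 4 weeks and 7940.4 to 10441 at 12 weeks. In HET the list had 2 called higher and 1 lower, with a median of -0.016. In KO it had 2 called higher and 2 lower, with a median of -0.067. Over all tested genes, 5.65% were called higher and 6.05% lower in HET, and 4.10% and 5.21% in KO. In WT somatosensory cortex 0 of 30 were called higher and 5 lower, against 10.9% of all tested genes lower. In WT hippocampus 0 were called higher and 9 lower, against 8.67% lower.

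Of 25 endothelial and mural genes, 5 were called higher and 0 lower in WT, against 6.01% called higher among all genes. Without libraries 914 and 142, 2 were called higher, and without 913, 8. Ly6c1, an endothelial surface protein (chromosome 15, 75044018 to 75048830, minus strand), held 12.6, 11.7, 12.98, 14.4 and 15.6 CPM in the 4-week libraries and 26.8, 29.9, 19.4, 21.99 and 17.8 CPM in the 12-week libraries, without overlap, and rose by 0.79 ± 0.14 (SE, adjusted p = 0.00345). Abcb1a, the efflux pump of the blood-brain barrier, rose by 0.67 ± 0.12 (SE, adjusted p = 0.00508). The contractile proteins Acta2 and Tagln changed by 1.28 ± 0.38 (SE, adjusted p = 0.0372) and 1.11 ± 0.28 (SE, adjusted p = 0.0183). Acta2 lost its call on leaving out any library other than 4-week 913 and 12-week 4 (largest adjusted p = 0.0933) and with offsets (adjusted p = 0.0719). In HET 0 members were called by edgeR, with 3 at an unadjusted p under 0.05. In KO 1 was called lower, against 5.21% of all tested genes. In WT, 7 members were called lower in somatosensory cortex (7 of 25, against 10.9% of all tested genes) and 5 in hippocampus (5 of 26, against 8.67%). The median change of the choroid plexus and meninges markers was 0.51, with 2 of 13 below 0 in WT and 0 called by edgeR (2 at an unadjusted p under 0.05 and 1 called by DESeq2), against medians of -0.24 in HET and -0.0063 in KO. Without 4-week library 913, 7 of them were called higher. Their part in the rise was not tested.

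Trophic factors held 3 called rises and 0 falls among 27 genes, against 6.01% called higher among all genes. The list's median was 0.044, and 13 of the 27 were below 0. Fgf2, a fibroblast growth factor, rose by 0.55 ± 0.14 (SE, adjusted p = 0.0242), the insulin-like growth factor binding protein Igfbp6 by 0.35 ± 0.08 (SE, adjusted p = 0.0122) and Fgf1 by 0.43 ± 0.13 (SE, adjusted p = 0.0351). Fgf2 lost its call on leaving out 4-week 142, 4-week 23, 12-week 1, 12-week 3 or 12-week 5 (largest adjusted p = 0.0629). Fgf1 lost its call on leaving out 4-week 142, 4-week 23, 4-week 914, 12-week 1 or 12-week 5 (largest adjusted p = 0.0863) and with offsets (adjusted p = 0.0547). Bdnf, the main neurotrophin of cortex, changed by 0.32 ± 0.15 (SE, adjusted p = 0.169) and did not pass.

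Lists of recent activity, the clock and the cell cycle held few calls, while the list of hormone response held more rises in WT. Of 17 glucocorticoid-responsive genes, 4 were called higher and 0 lower, against 6.01% called higher among all genes. Without libraries 914 and 142, 2 were called higher. In HET 1 was called higher and 2 lower, with a median of 0.016, against 5.65% and 6.05% of all tested genes. In KO 0 were called higher by edgeR and 1 lower, with 3 at an unadjusted p under 0.05. The median in KO was 0.056, and 4.10% of all tested genes were called higher and 5.21% lower there. The lipid droplet protein Plin4 rose by 1.65 ± 0.36 (SE, adjusted p = 0.0103), the pyruvate dehydrogenase kinase Pdk4 by 0.83 ± 0.15 (SE, adjusted p = 0.00484), the sulphotransferase Sult1a1 by 0.85 ± 0.20 (SE, adjusted p = 0.0160) and the kinase Map3k6 by 0.59 ± 0.16 (SE, adjusted p = 0.0249). Sult1a1 was not called with offsets (adjusted p = 0.0588), and Map3k6 lost its call on leaving out 4-week 142, 4-week 92, 12-week 2 or 12-week 4 (largest adjusted p = 0.0635). Among 25 activity-regulated early genes, Per1 was called lower, with a change of -0.74 ± 0.23 (SE, adjusted p = 0.0484), and the call was lost on leaving out any library other than 4-week 142 (largest adjusted p = 0.101) and with offsets (adjusted p = 0.221). Fos and Arc changed by -0.50 ± 0.30 (SE, adjusted p = 0.285) and -0.71 ± 0.31 (SE, adjusted p = 0.149) and did not pass. The clock gene Arntl changed by 0.32 ± 0.088 (SE, adjusted p = 0.0267), with the call lost on leaving out 4-week 142, 4-week 23, 12-week 1, 12-week 2 or 12-week 3 (largest adjusted p = 0.0714). Of 22 tested genes of cell proliferation, 1 was called higher and 0 lower, and the cycle marker Mki67, at 1.33 ± 0.470 CPM at 4 weeks and 0.789 ± 0.285 CPM at 12 weeks (SD, n = 5 each), changed by -0.73 ± 0.30 (SE, adjusted p = 0.118) and did not pass.

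**Figure D3:**
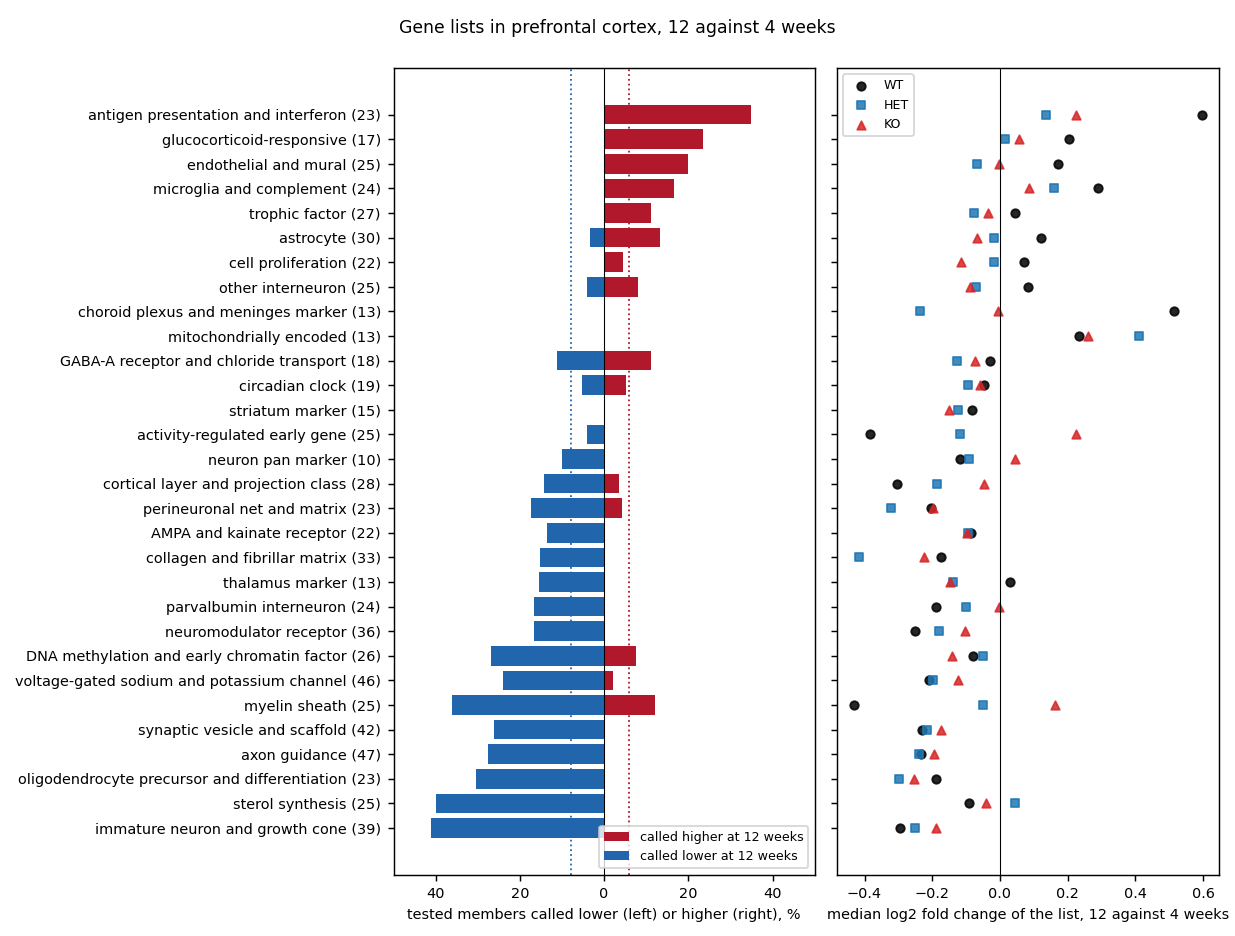
Gene lists with at least 10 tested members (number in brackets). Left, the percentage of tested members called lower or higher in WT at 12 weeks, with dotted lines at the percentages over all tested genes (7.79% lower and 6.01% higher). Right, the median log2 fold change of each list in WT, HET and KO; the immature neuron, axon guidance and synaptic lists lie below 0 in all 3 genotypes, while the medians for myelin differ in sign between WT and KO.

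The same comparison in HET and KO shared no library with WT. In HET, 1860 of 15902 genes were called (11.7%), and in KO 1477 of 15859 (9.31%). Of the 2203 genes called in WT and tested in HET, 97.8% changed in the same direction, against 76.1% of all 15783 genes tested in both. Of these, 971 (44.1%) were called the same way in HET, and 0 were called the opposite way. In KO, 95.4% of 2199 shared the direction, against 72.5% of all genes, and 802 (36.5%) were called the same way and 0 the opposite way. HET and KO were taken at the same 2 ages as WT, so their libraries do not separate age from collection. In all, 656 genes were called the same way in WT, HET and KO, 409 of them lower, and 278 of these, 180 of them lower, were also called in WT with offsets. With offsets in all 3 genotypes, 159 were left, 100 of them lower.

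**Figure D4:**
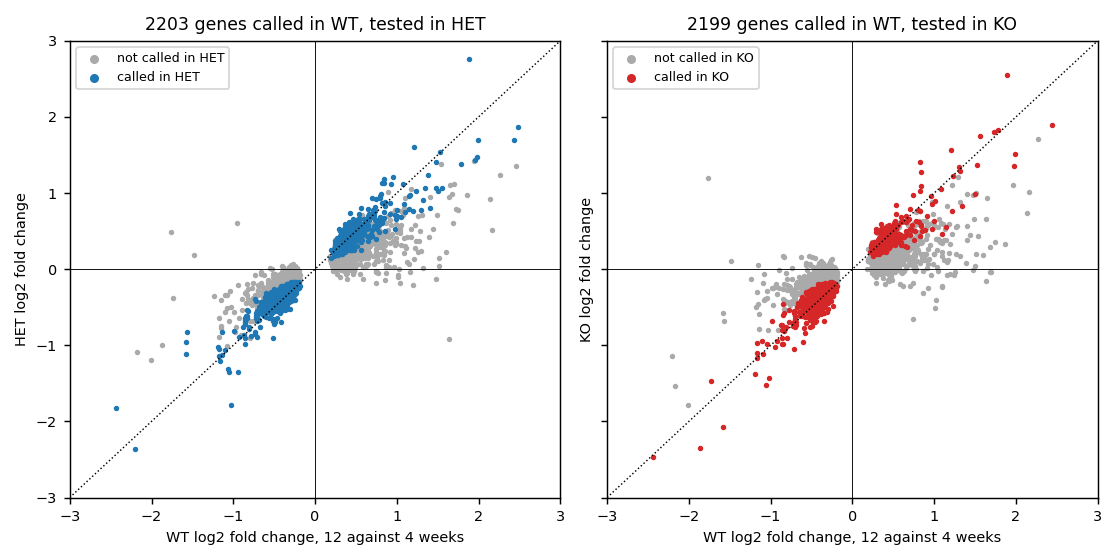
Log2 fold change, 12 against 4 weeks, of the genes called in WT (x axis) against HET (left, 2203 genes) and KO (right, 2199 genes); coloured points were called in that genotype, and the dotted line marks equal change. Coloured points lie in the quadrants of shared direction, and 2 genes, Gm10800 and Gm26870, lie beyond the axes, which end at 3.

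The falls and rises given next were among the 278, up to S100b. Cd24a changed by -1.14 in HET (adjusted p = 3.76e-04) and -1.17 in KO (adjusted p = 0.00798), and Dpysl2 by -1.06 in HET (adjusted p = 0.00210) and -1.12 in KO (adjusted p = 5.09e-05). Marcksl1 stood at -1.05 in HET (adjusted p = 6.17e-05) and -0.96 in KO (adjusted p = 5.02e-04). For Sema6a the values were -0.90 in HET (adjusted p = 2.36e-04) and -0.98 in KO (adjusted p = 3.57e-05). Nlgn3 had -0.89 in HET (adjusted p = 4.33e-05) and -0.95 in KO (adjusted p = 3.18e-06) and Ncan had -0.78 in HET (adjusted p = 6.93e-05) and -0.76 in KO (adjusted p = 3.57e-05). The enzymes of DNA methylation did the same, Dnmt3a with -0.58 in HET (adjusted p = 5.23e-04) and -0.55 in KO (adjusted p = 8.19e-04), Tet3 with -0.64 in HET (adjusted p = 3.76e-04) and -0.57 in KO (adjusted p = 0.0166) and Tet1 with -0.85 in HET (adjusted p = 3.76e-04) and -0.73 in KO (adjusted p = 0.00533). Met changed by -1.35 in HET (adjusted p = 0.00324) and -0.99 in KO (adjusted p = 0.0149). On the rising side, Xdh stood at 1.48 in HET (adjusted p = 0.00607) and 1.35 in KO (adjusted p = 0.0205) and Il33 at 1.06 in HET (adjusted p = 9.71e-04) and 0.82 in KO (adjusted p = 0.00212). Rnf207 rose by 1.12 in HET (adjusted p = 0.00446) and 1.05 in KO (adjusted p = 9.75e-04) and S100b by 0.78 in HET (adjusted p = 6.99e-04) and 0.52 in KO (adjusted p = 0.0134). With offsets Tet3, Met and S100b were not called in KO, at adjusted p = 0.109, 0.0576 and 0.0611. Cyp26b1, by contrast, changed by -0.82 in HET (adjusted p = 0.0337) and -0.68 in KO (adjusted p = 0.247), and Etnppl by 1.23 in HET (adjusted p = 0.00661) and 0.081 in KO (adjusted p = 0.851), so neither passed in KO. Cyp26b1 was not called in HET with offsets (adjusted p = 0.102), and the difference between genotypes was not called.

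**Figure D5:**
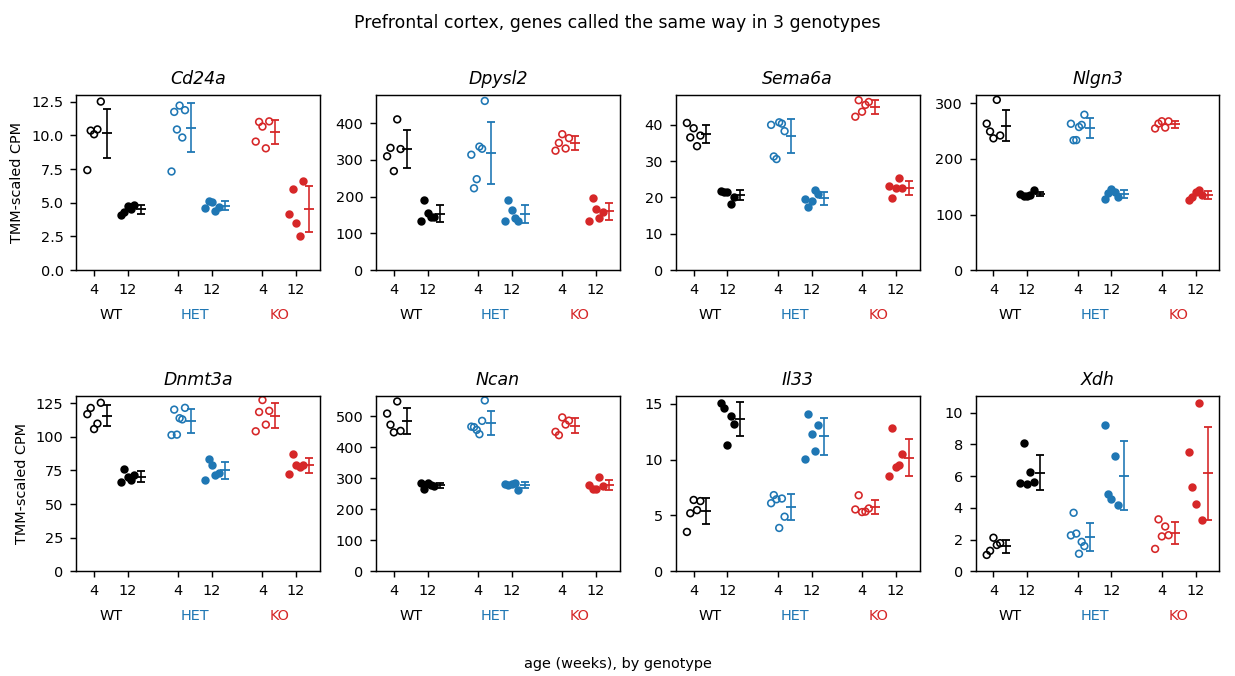
TMM-scaled CPM of 8 genes called the same way in WT, HET and KO prefrontal cortex, by age in weeks and genotype; points are libraries (open at 4 weeks, filled at 12 weeks), and bars beside them are the mean and SD. In WT the ages do not overlap for any of the 8, and 6 fall and 2, Il33 and Xdh, rise.

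The age effect of prefrontal cortex was then set against those of WT somatosensory cortex and WT hippocampus, each in a fit over both regions. Against somatosensory cortex, 1 of 16349 genes was called by edgeR (0.00612%), with 1178 at an unadjusted p under 0.05 and 21 called by DESeq2. It was Ccdc3, a secreted coiled-coil protein (chromosome 2, 5137776 to 5230878, plus strand), which held 20.7, 18.1, 16.4, 22.6 and 16.5 CPM in the 4-week libraries and 37.4, 34.4, 32.6, 25.3 and 29.01 CPM in the 12-week libraries in prefrontal cortex, a rise of 0.75 ± 0.12 (SE, adjusted p = 0.00197). In somatosensory cortex it changed by -0.37 ± 0.11 (SE, adjusted p = 0.0228), and the difference was 1.101 ± 0.16 (SE, adjusted p = 0.00684). It did not pass in HET or KO prefrontal cortex, at 0.23 in HET (adjusted p = 0.402) and 0.0050 in KO (adjusted p = 0.989). The striatal markers in somatosensory cortex summed to 437 to 692 unscaled CPM at 4 weeks and 501 to 554 at 12 weeks, against 268 to 359 and 324 to 355 unscaled CPM in prefrontal cortex.

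Against hippocampus, 15 of 16765 genes were called (0.0895%), 14 of them with a more positive change in prefrontal cortex (0.0835%) and 1 with a more negative one (0.00596%), with 1993 at an unadjusted p under 0.05 and 95 called by DESeq2. With relative log expression factors 3 were called, and with the replicate number as a block edgeR called 0 and limma-voom 8. The adjusted p was 0.0412 for Ccdc3 and Adamts18 and 0.0479 for Tnc, Gsn, Rab7b and Cort. Large differences were in Rab7b, a GTPase of endosomes, Tnc, a juvenile matrix glycoprotein, Adamts18, a metalloprotease, and Gsn, an actin-severing protein. Tnc changed by -0.43 in prefrontal cortex and -2.11 in hippocampus, a difference of 1.67 ± 0.33 (SE), and Adamts18 by -0.058 and -1.57, a difference of 1.51 ± 0.25 (SE). Gsn, also an oligodendrocyte gene, differed by 1.32 ± 0.25 (SE) and Rab7b by 2.08 ± 0.40 (SE). Cort, a neuropeptide of interneurons, was the gene with a more negative change in prefrontal cortex, at -0.31 against 1.21 in hippocampus, a difference of -1.52 ± 0.28 (SE). These calls rested on single libraries, with 0 called on leaving out prefrontal 4-week 142 or 914, prefrontal 12-week 1, 3 or 5, or hippocampal 12-week 2 or 3. In hippocampus the thalamic markers summed to 276 to 2078 unscaled CPM at 4 weeks and 253 to 477 at 12 weeks, with 11 of 14 called lower. In prefrontal cortex they summed to 162 to 229 and 175 to 247 unscaled CPM, and their part in these differences was not tested. The summed myelin markers in hippocampus were at 10011 to 21710 unscaled CPM at 4 weeks and 6197 to 8726 at 12 weeks. In prefrontal cortex the myelin markers were at 1352 to 2932 and 1198 to 1549 unscaled CPM, and their part was not tested either.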

How the data were processed

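Messenger RNA of dissected brain regions was sequenced by the submitters. The submitters' processing notes name Salmon and mm10. For the annotation, the strand setting and the Salmon version the sources used here give nothing. The deposited table holds expected counts, estimated by the authors per gene symbol for 28338 symbols. In the 10 WT prefrontal libraries 75.2% of values above 0 were not whole, and all were rounded before testing. Counting error limits the precision of low values, and estimated counts can hide reads shared between close copies of a gene.

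Groups came from the labels. Each age comparison was fitted in edgeR 4.0.16 (R 4.3.3) on its own 2 groups with TMM factors, the default low-count filter, quasi-likelihood F tests and Benjamini-Hochberg adjustment over all tested genes, with calls at an adjusted p under 0.05. Region and genotype differences were interaction terms. The standard error of a log2 fold change is its size over the square root of F. The edgeR and offset steps were tested on simulated data. DESeq2 1.42.0 and limma 3.58.1 served as alternatives, beside other factors and filters, libraries left out, a joint fit of genotypes and a covariate for the libraries with under 10% whole numbers. Replicates were compared first: none of 20 pairs agreed within sampling noise. Transcript GC content and length came from GENCODE M21 on GRCm38, matched by symbol for 95.4% of symbols, and promoters from RefSeq on GRCm38.p6. Gene positions are GENCODE M21 on GRCm38.

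Named genes were a fixed list of 72, the 12 largest rises and 12 largest falls without overlap between ages at an average log2 CPM of at least 1, up to 4 called members of each of 33 lists with the largest change, and up to 6 differences in each direction of each difference test. The members and lists were chosen with earlier results of these data known. Dpysl3, Slit2, Apod, Plekhb1, Car2, Kcnd3 and H2-K1 were named after their values were seen. Some genes the rule names are not reported here. Of the 72 fixed names, 71 were tested, of which 3 were called higher, 14 lower and 54 not, the last with changes from -1.17 to 0.48. The lists with no gene described singly were the mitochondrially encoded genes (0 of 13 called), striatal (0 of 15), thalamic (2 of 13, lower), choroid plexus and meninges (0 of 13), blood (3 of 4, lower), pan-neuronal (1 of 10, lower) and sex-linked genes (0 of 4).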

Additional observations from a re-analysis of the deposited data

Results flagged for a closer look

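In groups of 4 to 10 libraries the highest or lowest library was checked for a gap to the next that is large for the group's range. Of 288 groups of WT prefrontal libraries checked, 21 had such a library, where chance gives about 1 in 20 groups. Library 12-week 2 stood apart in Htr1a (12.3 CPM, lowest), Robo3 (17.8 CPM, highest), Sult1a1 (9.55 CPM, highest) and Xdh (8.11 CPM, highest). Library 12-week 4 stood apart in Adra2a (7.65 CPM, lowest), Bsn (652 CPM, highest) and Id4 (18.00 CPM, lowest). Library 4-week 142 stood apart in Sox8 (42.2 CPM, lowest). Library 4-week 23 stood apart in Has3 (2.52 CPM, highest). Library 4-week 913 stood apart in Cd74 (7.30 CPM, highest), H2-Aa (3.09 CPM, highest) and Pdk4 (7.34 CPM, highest). Library 4-week 914 stood apart in Chrm4 (47.5 CPM, highest), Gap43 (411 CPM, highest), Scn2b (554 CPM, highest), Slc17a7 (3938 CPM, highest), Sox11 (8.33 CPM, lowest) and Syp (3393 CPM, highest). Library 4-week 92 stood apart in Plekhb1 (69.03 CPM, highest). Measures of the libraries did too: the share of counts in genes that collect ribosomal RNA reads was 1.12% in library 12-week 5, and the TMM factor was 0.788 in library 4-week 914.

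The change from 4 to 12 weeks differed between WT prefrontal cortex and another WT region in the interaction test of edgeR. Against somatosensory cortex, Ccdc3 differed by 1.101. Against hippocampus the log2 differences were those of Adamts18 (1.51), Ass1 (0.69), Ccdc3 (0.97), Cort (-1.52), Gramd3 (0.95), Gsn (1.32) and Ick (0.83). They were also those of Mtss1 (0.60), Parvb (0.85), Prom1 (0.95), Rab7b (2.08), Tmem141 (0.86), Tnc (1.67) and Trim67 (0.82). The libraries whose removal left 0 of these calls, and the thalamic and myelin markers in hippocampus, are given with the result above.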

How the results depend on the processing

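No paired analysis was possible because the 4-week and 12-week prefrontal libraries share no replicate number. For the region differences, libraries of the same number in both regions of an age deviated together in 5 of 10 pairs with somatosensory cortex (correlations of -0.0341 to 0.313) and in 2 of 10 with hippocampus (-0.178 to 0.197), counting those over 0.1. Of the 10, 6 and 3 libraries correlated best with their own number, each among the 5 or 6 libraries of that age in the other region. These correlations do not decide whether a number marks 1 animal, and the main fits did not use the numbers as pairs. With the replicate block, edgeR called 5 and 0 genes for the 2 regions and limma-voom 1 and 8, against 1 and 15 without it. Leaving out 1 library at a time gave 1328 to 2897 calls in WT (2204 with all), 1149 to 2406 in HET (1860), 686 to 1938 in KO (1477), 1 to 2 against somatosensory cortex, 0 to 31 against hippocampus and 0 throughout between genotypes. GC and length offsets, added after the data were seen, gave 1013 in WT, 690 in HET and 739 in KO. A joint fit of the genotypes with a covariate for libraries of few whole numbers gave 3421, 2804 and 2462. With the few-whole-number library as the only 4-week library, assumed to vary like the other groups, HET gave 633. DESeq2 gave 2280 in KO, 21 against somatosensory cortex, 95 against hippocampus and 2 between genotypes. Relative log expression factors gave 3 against hippocampus. Leaving out the libraries of few whole numbers gave 4 against somatosensory cortex and 0 against hippocampus. The cause was not tested.

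Of 118 called genes named with values, 109 kept the call without library 914, 83 without 914 and 142, 74 with offsets, 99 in the joint fit, 115 with relative log expression factors and 118 with DESeq2. Signs turned for genes of small change and where library 914 alone stood for 4 weeks. With 914 alone, Col1a1 was at 0.068, Col24a1 at 0.23, Gsn at 0.085, Mki67 at 0.22, Pdgfra at 0.12, Snap25 at -0.32, Adamts18 at 0.35 and Rab7b at 0.42. Gap43 was at 0.12 without 914, 0.11 with the covariate and 0.085 without 914 and 142. With offsets Grin2a was at 0.083, Adamts18 at 0.0077 and Rab7b at 0.013. Leaving out 1 library at a time, the range was -0.092 to 0.12 for Gap43, -0.042 to 0.54 for Gfap, -0.074 to 0.017 for Grin2a, -0.13 to 0.056 for Adamts18 and -0.29 to 0.18 for Rab7b. Genes of few CPM, such as Enpp6 and Has3, rest on few counts.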
